A study of Mus musculus with 281 samples.

Results

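Retinoic acid is the signalling form of vitamin A, and 9 genes that make it, break it down, carry it or read it were followed through single cells of the mouse stria vascularis. The genes, out of 47752 in the deposited table, were Aldh1a1, Aldh1a2 and Aldh1a3 (synthesis), Cyp26a1 and Cyp26b1 (breakdown), Crabp1 (binding in the cytoplasm) and Rara, Rarb and Rarg (nuclear receptors). They form a pathway list that was selected on a measured value of these data, the higher Cyp26a1 level in Slc26a4 mutant intermediate cells. That one pattern is therefore given below as a description and supports nothing else.

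Cells take up retinol and oxidise it to retinal through enzymes of the RDH and DHRS families, a step that DHRS3 runs in reverse. The ALDH1A enzymes then oxidise retinal to retinoic acid, and CYP26 enzymes hydroxylate retinoic acid and so remove it. Retinoic acid binds the receptors RARA, RARB and RARG, which sit on DNA as pairs with the RXR receptors, and Cyp26a1, Rarb and Dhrs3 are textbook genes that these pairs induce.

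The stria vascularis is the epithelium of the cochlear lateral wall that secretes potassium into the endolymph and holds its voltage. The study asked how its cell types differ between mice with and without pendrin, the anion exchanger encoded by Slc26a4 whose loss causes deafness with an enlarged vestibular aqueduct. Cells were aspirated one at a time with a glass micropipette and made into full-length Smart-Seq2 libraries, 1 library per cell. There were 172 cells labelled Slc26a4+/+ (mice aged 22 to 42 days), 40 labelled Slc26a4+/- (26 to 33 days) and 69 labelled Slc26a4-/- (24 to 44 days), all on the 129S6 strain and, by the study's methods, all from male mice. What else the alleles carry was not given in the sources used here.

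No label ties a cell to a mouse, so each genotype counted as 1 sample, no genotype difference had a replicate check, and no test was run. The 281 cells held 1848 to 7932729 estimated counts (median 1312950), and values are CPM, a gene's share of a cell's counts scaled to the same total in every cell, unless given as TPM, which also divides by transcript length. The libraries came from 4 run dates, here called batches. Only batches 2 and 4 held cells of more than 1 genotype in numbers: batch 2 had 26 Slc26a4+/+ and 46 Slc26a4-/- cells, and batch 4 had 19 Slc26a4+/+, all 40 Slc26a4+/- and 22 Slc26a4-/- cells. Median counts per cell ran from 291155 in batch 1 to 2346920 in batch 4, so values within batches 2 and 4 are given beside pooled ones where those batches held cells of both genotypes, and a comparison with no batch named is over all batches. Slc26a4 RNA itself did not separate the labels: in spindle-like and root-like cells together it had at least 10 counts in 26 of 40 Slc26a4+/+, 4 of 8 Slc26a4+/- and 11 of 23 Slc26a4-/- cells. Every direction below rests on the labels.

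Clusters were named from marker genes, with a score that was changed after a first one had left SC unnamed: 118 intermediate-like cells (IMC, the melanocyte-derived cells of the stria; Tyr was found in 100% of them, but Pmel in 1.69%), 35 spindle-like cells (SC), 36 root-like cells (RC) and 21 marginal-like cells (MC, with Kcnq1 in 100%). The IMC were 60 Slc26a4+/+, 23 Slc26a4+/- and 35 Slc26a4-/- cells. A cluster of 54 cells led by haemoglobin genes and Ptprc and one of 17 cells whose leading genes were Crhbp and Vmo1 stayed unnamed. In all 17 cells of the latter the markers of Reissner's membrane scored highest. A gene is called found in a cell that held at least 10 of its counts.

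Among the promoter windows of these genes, those of Cyp26a1 and Rarb held a pair of receptor half-sites in the arrangement that RAR and RXR pairs are known to bind, a direct repeat with 5 bases between. The half-site AGGTCA was searched together with the half-site AGTTCA, the half-site GGGTCA and the half-site GGTTCA, any of them followed after 5 bases by any of them, on both strands. RefSeq windows (GRCm38.p6, 250 bases before to 50 after a start) were on hand for 8 of the 9 genes. The repeat was in 2 of their 13 windows, against 32 of all 32851 windows (0.0974%). The same 2 were the only matches in the 48 windows on hand for a list of 40 genes described further below. Cyp26a1 and Rarb are textbook genes that these pairs induce, and the 9 genes were selected on Cyp26a1. Nothing is therefore read from the difference between these shares. The repeat is a match of letters and not evidence of binding. The 2 sites, the only matches in the windows of these genes, are each read along the strand of the repeat, with the half-sites and the bases between in capitals:
Rarb: ggaagGGTTCACCGAAAGTTCActcgc
Cyp26a1: aaattAGTTCACCCAAAGTTCAtcttt

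The Rarb site was at chr14:16575508-16575534 (GRCm38). Its repeat ended 37 bases before the RefSeq start of this gene on the minus strand, inside the annotated span of the gene (chr14:16430839-16819156). The Cyp26a1 site was at chr19:37697771-37697797, with the repeat on the minus strand and 32 to 16 bases before the RefSeq start of the plus-strand gene. The 240 bases before the annotated Cyp26a1 start, chr19:37697558-37697797 on the plus strand, with the repeat in capitals, were:
Cyp26a1 upstream: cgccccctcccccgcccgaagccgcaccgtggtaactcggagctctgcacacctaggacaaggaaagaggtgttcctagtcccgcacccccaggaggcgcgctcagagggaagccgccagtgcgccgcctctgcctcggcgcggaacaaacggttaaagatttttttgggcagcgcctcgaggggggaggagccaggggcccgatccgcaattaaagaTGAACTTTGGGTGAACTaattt

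The 3 synthesis enzymes each had their highest mean in a cell type outside the IMC. In Slc26a4+/+ cells, Aldh1a2 (chr9:71215789-71296243, plus strand), the retinal dehydrogenase that makes most retinoic acid in the embryo, had a mean of 386 CPM in the 14 MC (median 97.0, highest 3288, found in 8). Its means were 5.58 CPM in RC, 4.58 CPM in SC and 0.143 CPM in IMC. The gap between MC and the next cell type was 5.88 on the log2 scale, more than the larger SD of the means over batches (2.38). Aldh1a2 also ranked among the 10 leading genes of the MC cluster by fold, although it was left out of the genes used for clustering.

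Aldh1a1 (chr19:20492715-20643465, plus strand), the form known for high levels in liver and eye, had means of 98.2 CPM in the 23 SC (highest 528, found in 7) and 73.3 CPM in the 17 RC (highest 1114, found in 3). The SC and RC means were within the spread over batches (log2 difference 0.42, SD 3.70). In IMC its mean was 7.26 CPM and in MC 0.247 CPM, with no MC in which it was found. Aldh1a3 (chr7:66390890-66427517, minus strand), the third form, had 28.1 CPM in SC and 3.34 CPM in RC, and 1 SC with 513 CPM carried most of the SC mean. Without the highest cell the mean was 8.24 CPM for Aldh1a1 in RC, 6.09 CPM for Aldh1a3 in SC and 163 CPM for Aldh1a2 in MC. On the length-corrected scale, Aldh1a1 led in SC with 72.8 TPM, against 15.5 for Aldh1a3 and 3.26 for Aldh1a2, while Aldh1a2 led in MC with 182 TPM.

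Few cells held 2 of the enzymes, but each enzyme was itself found in few cells. At least 1 of the 3 was found in 11 of 23 SC, 5 of 17 RC, 8 of 14 MC and 6 of 60 IMC labelled Slc26a4+/+, and 2 of them together only in 1 of these cells, an RC. Aldh1a1, Aldh1a2 and Aldh1a3 were found in 7, 1 and 3 of the SC and in 3, 2 and 2 of the RC. Genes found in so few cells would share few of them in any case. No rate for other genes was taken, so nothing is read from the overlap. Outside MC, Aldh1a2 was found in 6 cells, and their marginal cell markers are given beside it. The 2 Slc26a4-/- SC with 430 and 226 CPM of Aldh1a2 had summed MC marker levels of 17022 and 3192 CPM, and a Slc26a4+/+ RC with 88.6 CPM had 28006 CPM. A Slc26a4+/+ SC with 105 CPM of Aldh1a2 had 1594 CPM of these markers, and another Slc26a4+/+ RC with 6.15 CPM had 12.9 CPM. The only IMC in which it was found, a Slc26a4-/- cell with 242 CPM, had 35.9 CPM of these markers. The sum over the 9 markers was 26461 to 70124 CPM in MC, with medians of 3933 CPM in SC, 438 CPM in RC and 133 CPM in IMC, so 2 of the 6 cells lay above the median of their type and 4 below it. The part of those markers in the Aldh1a2 values was not tested.

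**Figure D1:**
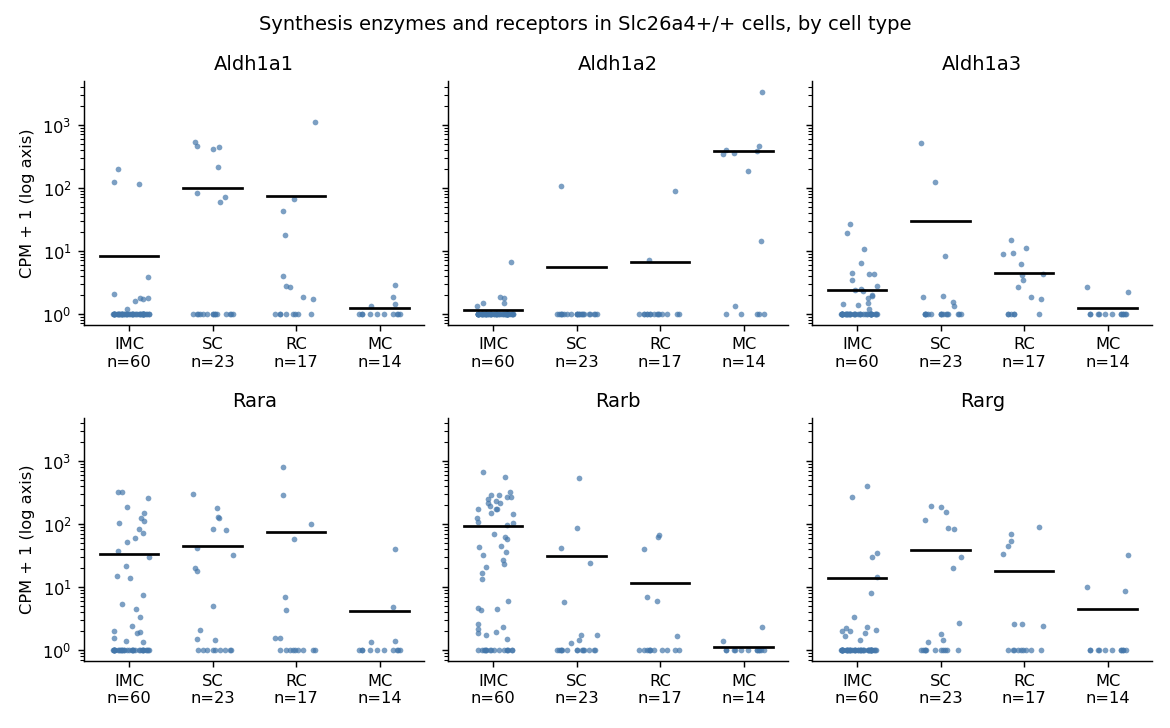
Level of the 3 synthesis enzymes and the 3 receptors in single Slc26a4+/+ cells by cell type, as CPM + 1 on a log axis; each point is a cell and the bar is the mean. Aldh1a2 was found in 8 of 14 MC, and the highest cells outside MC are an SC at 105 CPM and an RC at 88.6 CPM, while Rarb fills the upper range in IMC (mean 92.4 CPM).

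The receptors were found in more cells than the enzymes: Rarb in 96 of the 281 cells, Rara in 84 and Rarg in 65, against 42 for Aldh1a1, 21 for Aldh1a2 and 11 for Aldh1a3. In Slc26a4+/+ cells, Rarb (chr14:16430839-16819156, minus strand) had a mean of 92.4 CPM in IMC (median 21.2, highest 687, found in 33 of 60). Its means were 30.4 CPM in SC, 10.6 CPM in RC and 0.129 CPM in MC. The gaps from IMC to SC and from SC to RC stayed within the spread over batches (1.57 against 2.18 and 1.43 against 2.51 on the log2 scale), and the gap from RC to MC exceeded it (3.36 against 2.51).

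Rara (chr11:98927818-98974942, plus strand), known as the receptor present in most tissues, had 74.4 CPM in RC, 44.5 CPM in SC and 33 CPM in IMC, which were within the spread over batches, and 3.18 CPM in MC, which was below IMC by more than that spread (3.02 against 0.81). Rarg (chr15:102234938-102257517, minus strand), known for its role in skin and cartilage, had 38 CPM in SC, 17.4 CPM in RC, 13 CPM in IMC and 3.46 CPM in MC, and no neighbouring pair differed beyond the spread. MC thus had the lowest mean of each receptor among the named types. Without the highest cell the mean was 7.17 CPM for Rarb in SC, 28.7 CPM for Rara in RC and 6.26 CPM for Rarg in IMC. The receptor with the highest mean TPM differed by cell type. In IMC Rarb had 45.9, Rara 19.8 and Rarg 12.1, and in SC Rarg had 30.9, Rara 23.4 and Rarb 10.4. In RC Rara had 36.1, Rarg 34.8 and Rarb 5.13, so Rara and Rarg were close there. Over all genotypes, the 423-base transcript Rarg-204 carried 45.4% of Rarg TPM in RC, with at least 10 counts in 2 of 36 cells. No spread over batches was taken for TPM.

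Single IMC often held Rarb alone. At least 1 receptor was found in 42 of 60 Slc26a4+/+ IMC (exact 95% binomial interval 56.8 to 81.2%, which covers counting error only), and in 21 of them it was Rarb without Rara or Rarg. The count was 14 of 23 in SC, 8 of 17 in RC and 4 of 14 in MC. The shares of Rara transcripts in the mean TPM, over all genotypes, also differed between types. Rara-204 carried 74% of Rara TPM in RC and 63.7% in SC, but 14.2% in IMC, where Rara-203 (42.1%) and Rara-202 (31.8%) led. Rara-204 had at least 10 counts in only 7 of 36 RC, 8 of 35 SC and 6 of 118 IMC, so few cells set its shares. Which transcript a shared read came from is kallisto's estimate.

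The breakdown and binding genes were close to absent from Slc26a4+/+ cells. Crabp1 (chr9:54764748-54773110, plus strand) had no count in any of the 281 cells (exact interval 0 to 1.30%). Cyp26b1 (chr6:84571414-84593908, minus strand) had no count in the 172 Slc26a4+/+ cells and was found in 2 Slc26a4-/- cells, an IMC with 244 counts (116 CPM) and an SC with 18 counts (32.1 CPM). Cyp26a1 (chr19:37697798-37701536, plus strand), the hydroxylase that retinoic acid itself is known to induce strongly, was found in no Slc26a4+/+ cell of any type.

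Cyp26a1 was found in 13 cells, all of them IMC and all labelled Slc26a4+/- or Slc26a4-/-. It was found in 0 of 60 Slc26a4+/+ IMC (exact interval 0 to 5.96%), in 4 of 23 Slc26a4+/- IMC (17.4%, 4.95 to 38.8%) and in 9 of 35 Slc26a4-/- IMC (25.7%, 12.5 to 43.3%). These intervals cover counting error only, as cells of a genotype shared collection days. A single day gave 2 of the 4 Slc26a4+/- cells. In the 163 cells not named IMC, Cyp26a1 was found in none, and 11 of these held 1 to 6 counts. The 163 include the unnamed cluster of 54 cells, in which IMC markers scored highest in 46.3%. Most mutant IMC were thus at or near 0, and a minority carried the mean.

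Within batch 2, the 12 Slc26a4+/+ IMC had no count of Cyp26a1. Of the 23 Slc26a4-/- IMC, 3 had 62.9, 46.8 and 12.6 CPM and the other 20 had 0. The Slc26a4-/- mean of 5.32 CPM was at least 29.1-fold higher than 3 counts over the Slc26a4+/+ group.

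Within batch 4, the highest of the 7 Slc26a4+/+ IMC had 3.98 CPM and the mean was 0.625 CPM, from 5 counts in all. The 23 Slc26a4+/- IMC had 4 cells at 2228, 1550, 320 and 266 CPM (mean 190, median 0.455). Of the 12 Slc26a4-/- IMC, 6 had 619, 567, 435, 46.2, 38.4 and 21.1 CPM (mean 144, median 11.5). The cells with Cyp26a1 thus lay above every Slc26a4+/+ cell, while the rest overlapped with them, and the Slc26a4+/- and Slc26a4-/- cells overlapped with each other.

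Against Slc26a4+/+ IMC, the log2 difference of mean CPM + 1 was 5.65 for Slc26a4-/- cells over all batches, 2.66 in batch 2 and 6.48 in batch 4. For Slc26a4+/- cells it was 7.48 over all batches and 6.88 in batch 4, the one batch that held them, and both comparisons share the Slc26a4+/+ cells. Between Slc26a4-/- and Slc26a4+/- cells of batch 4 it was -0.40. The fewest counts in a cell called found were 18, and no other IMC held more than 5, so no cell lay near the limit of 10.

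Several things moved with Cyp26a1. In batch 4, 18 of 42 IMC and 10 of 39 other cells held 1 to 9 counts, against 1 such cell in the 3 other batches together. The batch 4 IMC had a median depth of 1831850 counts for the label +/+, 2443460 for +/- and 3940870 for -/-. With each library reduced at random to 100000 counts, a count remained in 0 of 60 IMC labelled +/+, 8 of 23 labelled +/- and 10 of 35 labelled -/-. No collection day of batch 4 held IMC of 2 genotypes, so day and genotype cannot be told apart there. In batch 2, 5 days held IMC of both genotypes, with Cyp26a1 found in 0 of 11 Slc26a4+/+ and 1 of 15 Slc26a4-/- cells. In the same order of genotypes, the summed MC markers in IMC had medians of 237, 40.3 and 108 CPM (9, 8 and 7 of the 9 markers seen) and the summed SC markers 13.7, 7.78 and 10.6 CPM (7, 6 and 5 of 7 seen). The summed RC markers had medians of 52.5, 63.5 and 83.2 CPM (5 of 6 seen in each genotype) and so were higher in the mutant cells, with ranges that overlapped (0.863 to 1000, 8.95 to 564 and 1.10 to 656 CPM). The part of these markers in the Cyp26a1 values was not tested. By collection day, the mean reached 1 CPM on 1 of 20 Slc26a4+/+, 3 of 4 Slc26a4+/- and 4 of 9 Slc26a4-/- sets of IMC.

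**Figure D2:**
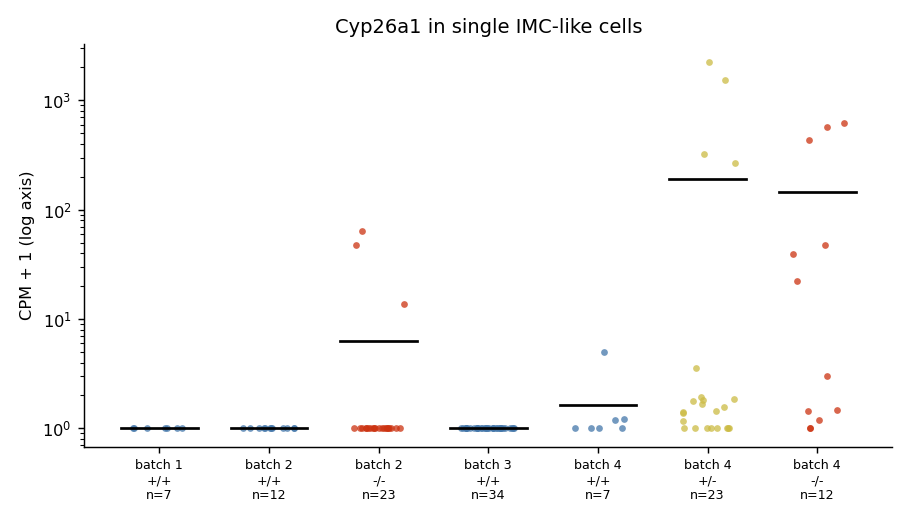
Cyp26a1 in single IMC by batch and genotype, as CPM + 1 on a log axis; each point is a cell and the bar is the mean. The highest Slc26a4+/+ cell is at 3.98 CPM, and 13 mutant cells lie between 12.6 and 2228 CPM.

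Cyp26b1 and Cyp26a1 met in 1 cell: the Slc26a4-/- IMC with 116 CPM of Cyp26b1 was the one with 46.2 CPM of Cyp26a1. Cyp26c1, the remaining enzyme of the family, had a mean of 0.210 CPM in Slc26a4-/- IMC and was found in 1 of them.

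The mean of Rarb in IMC differed more between batches 2 and 4 than between genotypes within either. In batch 2 its mean was 46.4 CPM in Slc26a4+/+ (lowest 0, median 1.27, highest 268) and 47.1 CPM in Slc26a4-/- cells (lowest 0, median 13.8, highest 255). In batch 4 the means were 184 CPM for the label +/+, 198 CPM for +/- and 166 CPM for -/-, with medians of 152, 135 and 146 CPM. The genotypes overlapped over nearly their whole range in both batches. The log2 difference between Slc26a4-/- and Slc26a4+/+ cells was 0.02 in batch 2 and -0.15 in batch 4. For Slc26a4+/- cells the pooled difference of 1.09 was 0.10 within batch 4, so the pooled value passed a 2-fold limit and the value within the batch did not.

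The means of Rara and Rarg had no direction that both batches shared. Rara means in IMC were 48.5 CPM in Slc26a4+/+ and 61.5 CPM in Slc26a4-/- cells of batch 2, and 37.7 and 34.9 CPM in batch 4 (log2 differences 0.34 and -0.11). Rarg means were 34.3 and 26.1 CPM in batch 2, but 0.190 and 39.5 CPM in batch 4, where the 7 Slc26a4+/+ cells held 1 count in all. The pooled Rarg difference of 1.18 thus had opposite signs in the 2 batches (-0.38 in batch 2), and it was 0.67 with the first clustering and score. The batch 2 Slc26a4+/+ mean of Rarg came almost wholly from 1 cell at 410 CPM. Rarg was found in 1 of 12 Slc26a4+/+ and 9 of 23 Slc26a4-/- cells of batch 2. In batch 4 it was found in 0 of 7 and 6 of 12. For Rara the counts were 2 of 12 and 10 of 23, then 4 of 7 and 8 of 12. By share of cells, both genes were thus higher in Slc26a4-/- IMC of both batches. All 3 receptors were found together in 1 of 60 Slc26a4+/+, 0 of 23 Slc26a4+/- and 6 of 35 Slc26a4-/- IMC, and Rarb alone in 21, 9 and 4. In batch 2 all 3 were found together in 0 of 12 Slc26a4+/+ and 2 of 23 Slc26a4-/- cells, with Rarb alone in 4 and 2. In batch 4 the 3 were together in 0 of 7 Slc26a4+/+ and 4 of 12 Slc26a4-/- cells, with Rarb alone in 3 and 2.

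A gene was called 2-fold different when the log2 difference was at least 1 either way and its mean reached 10 CPM in either genotype. In IMC, 5 of the 9 genes reached that level in Slc26a4-/- against Slc26a4+/+ cells, and 2 were called higher (Rarg and Cyp26a1) and 0 lower. Over all 9575 genes at that level, 11.5% were called higher and 17.9% lower, and 8.44% and 10.1% when batches 2 and 4 also had to share the sign, which among the 5 genes only Cyp26a1 did. The median log2 difference was 0.65 over the 5 genes and -0.14 over all. In Slc26a4+/- against Slc26a4+/+ IMC, 2 of 4 genes (Rarb and Cyp26a1) were called higher, with 11% higher and 20.1% lower over all genes. As the genes were chosen for this contrast, nothing is read from these counts.

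In the other cell types the genotype groups were small. In MC, the mean of Aldh1a2 was 386 CPM for the 14 labelled +/+, 296 CPM for the 2 labelled +/- and 379 CPM for the 5 labelled -/-, and it was found in 8, 2 and 5 of them. Its log2 difference between Slc26a4-/- and Slc26a4+/+ MC was -0.03. The MC could be compared within batch 2 only, where the means were 1009 CPM in 4 Slc26a4+/+ cells and 552 CPM in 2 Slc26a4-/- cells.

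Aldh1a1 was higher in Slc26a4-/- RC, at 198 CPM (median 194, found in 8 of 13) against 73.3 CPM in Slc26a4+/+ RC (found in 3 of 17), a log2 difference of 1.42. In batch 4 the means were 198 CPM in 7 Slc26a4-/- and 11 CPM in 6 Slc26a4+/+ cells (log2 difference 4.05), and the groups overlapped at 0. In batch 1, 6 Slc26a4+/+ RC also had a mean of 196 CPM, but with a median of 9.85 CPM (highest 1114, found in 2). Among RC genes 21.7% were called higher and 28.5% lower. In SC, Aldh1a1 had 151 CPM in 10 Slc26a4-/- cells, all of batch 2, and 98.2 CPM in Slc26a4+/+ cells, of which 2 were of batch 2 and had no count.

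The other calls of Slc26a4-/- against Slc26a4+/+ cells in these types rested on 1 to 3 cells of the higher group. In SC, Aldh1a2 was called higher in Slc26a4-/- cells (66.1 against 4.58 CPM, from 2 cells) and Aldh1a3 lower (0 counts against 28.1 CPM, found in 3 of 23), where 22% of all genes were called higher and 32.2% lower. In RC, Rarb was called lower (0.654 against 10.6 CPM, found in 0 of 13 and 3 of 17), and in batch 4 its means were 0.724 and 29 CPM. In MC, Rara (75.6 against 3.18 CPM), Rarb (11.8 against 0.129 CPM) and Rarg (83.2 against 3.46 CPM) were called higher, each with most of its mean from 1 of the 5 Slc26a4-/- cells (335, 57.5 and 364 CPM), and 26.1% of all genes were called higher and 26.4% lower.

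Around these genes, a list of 40 genes covered retinol uptake, the oxidoreductases, binding proteins, RXR receptors, coregulators and induced genes, and 31 of them were not among the 9. The reductase Dhrs3, which turns retinal back to retinol, was the highest of them in IMC: in Slc26a4+/+ IMC its mean was 1446 CPM (1472 TPM), and it was found in 60 of 60. Its means were 204 CPM in RC, 112 CPM in SC and 1.87 CPM in MC, and 1283 CPM in the unnamed cluster led by Crhbp. The retinol dehydrogenase Rdh10 had 138 CPM in RC (highest 1623, found in 4 of 17), 47.4 CPM in SC and 0.152 CPM in MC, and the RC mean was 44.9 CPM without its highest cell.

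Crabp2, which hands retinoic acid to its receptors, had 59.5 CPM in RC, where it was found in 8 of 17 cells, and 0.00810 CPM in IMC. The transglutaminase gene Tgm2, a known induced gene, had 265 CPM in SC (median 0.486, found in 9 of 23) and 2.53 CPM in IMC. IMC thus had the highest mean of Dhrs3 among the named types, RC that of Crabp2, SC that of Tgm2 and MC that of Aldh1a2, each also with the highest cell of every group left out. The mean of the retinol transporter gene Stra6 reached at most 2.05 CPM in a named type.

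By genotype in IMC, 16 of the 31 genes other than the 9 reached 10 CPM, and in Slc26a4-/- against Slc26a4+/+ cells 4 were called higher and 4 lower, against 11.5% higher and 17.9% lower of all genes at that level. The median log2 difference was -0.41, against -0.14 over all genes. Both batches shared the sign for 2 of the 4 (Rxrg and Ncoa3) and 3 of the 4 (Rdh13, Rdh14 and Nrip1). Of all genes at that level, 8.44% were called higher and 10.1% lower with 1 sign in both batches. The coactivator gene Ncoa3 had means of 105 CPM in Slc26a4+/+ and 677 CPM in Slc26a4-/- cells of batch 2 (medians 11.2 and 438), and 158 and 357 CPM in batch 4 (medians 177 and 331). The Slc26a4-/- cells of batch 4 began at 160 CPM and overlapped the Slc26a4+/+ cells, which ranged from 1.01 to 320 CPM.

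Genes lower in Slc26a4-/- IMC included the corepressor gene Nrip1. Its mean was 394 CPM in Slc26a4+/+ and 107 CPM in Slc26a4-/- cells of batch 2, and 121 and 37.6 CPM in batch 4 (log2 differences -1.87 and -1.66). The medians were 306 and 20.4 CPM in batch 2 but 16.3 and 27.5 CPM in batch 4, so there the lower mean came without a lower median. For the retinal reductase gene Rdh13 the means were 32.3 and 5.94 CPM, then 86.8 and 19 CPM (-2.26 and -2.14). It was found in 1 of 12 and 3 of 23 cells of batch 2, where the medians were 0.764 and 1.73 CPM, so the higher mean there came from 1 Slc26a4+/+ cell.

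Dhrs3 was below the Slc26a4+/+ mean in the pooled Slc26a4-/- IMC (745 against 1446 CPM, log2 difference -0.96), but not within batch 4. The Slc26a4+/+ and Slc26a4-/- means were 729 and 583 CPM in batch 2 (medians 647 and 300) and 1018 and 1056 CPM in batch 4 (medians 889 and 1053). The 34 Slc26a4+/+ cells of batch 3, a batch with no mutant cells, had the highest Slc26a4+/+ mean, 1895 CPM. The Slc26a4+/- cells of batch 4 had a mean of 2506 CPM (median 1793, highest 15065).

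**Figure D3:**
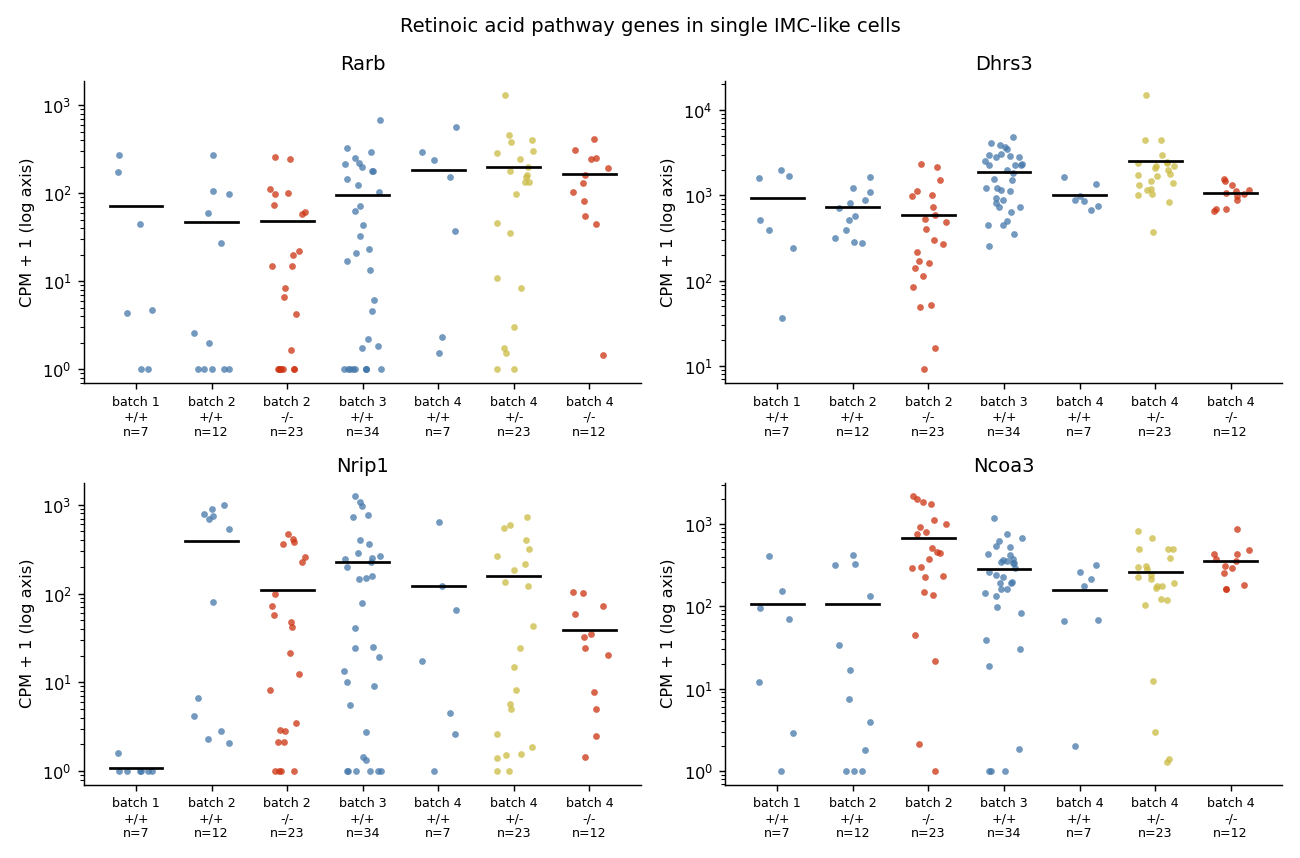
Rarb, Dhrs3, Nrip1 and Ncoa3 in single IMC by batch and genotype, as CPM + 1 on log axes; each point is a cell and the bar is the mean. Rarb means differ more between batches 2 and 4 (46.4 and 184 CPM in Slc26a4+/+ cells) than between genotypes within a batch.

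**Figure D4:**
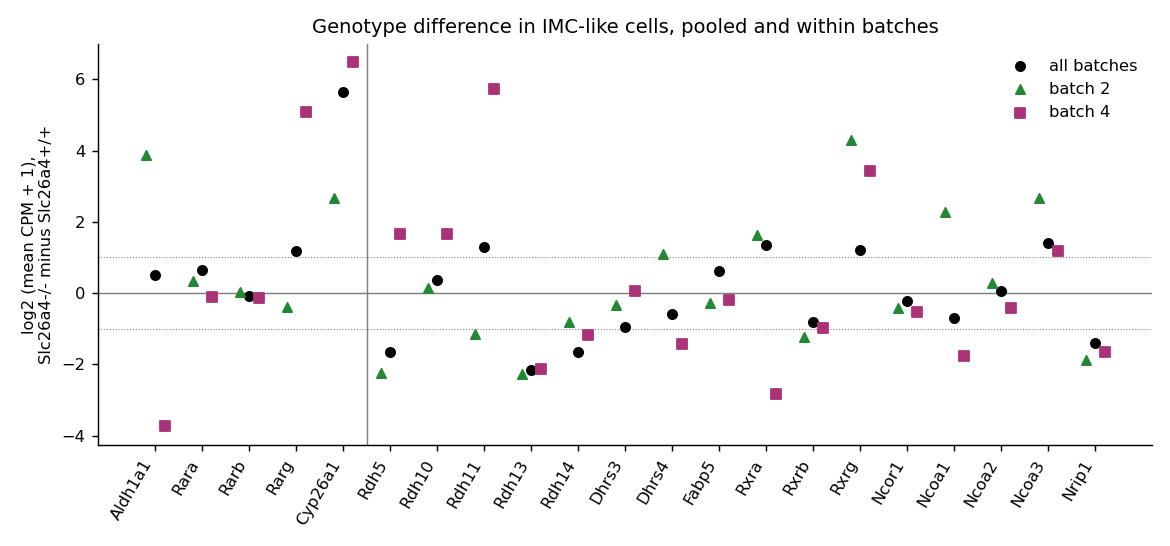
Log2 difference of mean CPM + 1 between Slc26a4-/- and Slc26a4+/+ IMC for the 21 listed genes with a mean of at least 10 CPM, over all batches (circles) and within batch 2 (triangles) and batch 4 (squares); dotted lines mark 2-fold, and the vertical line parts the 5 genes from the other 16. Cyp26a1 is above 2-fold in both batches (2.66 and 6.48), while Aldh1a1 and Rarg change sign between them.

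The genes whose counts per cell ranked most like those of Cyp26a1 across the 118 IMC, out of 8928 genes, were Psmb7 (Spearman rho 0.57), Plk2 (0.55) and Gm4735 (0.50). For Rarb in the same cells they were Sin3b (0.47), Rnf187 (0.46) and Plekhf2 (0.44). Aldh1a1 in the 35 SC was closest to Mia (0.70), Snx4 (0.69) and Mal (0.66), and Aldh1a2 in the 21 MC to Pacrgl (0.70), Ift80 (0.70) and Ints5 (0.66). Rara in the 36 RC was closest to its fellow receptor Rarg (0.63). The cells of a type share batches and differ in depth, and these values only describe these cells.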

How the data were processed

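Single cells of the stria vascularis were collected by micropipette and sequenced from Smart-Seq2 libraries. Per the labels, the authors ran kallisto on every library against mouse transcripts (mm10, GRCm38) in a version not given in the sources used here, and deposited its estimated counts, summed per gene in 1 table of 47752 genes, as well as TPM per transcript for each cell. Estimated counts in that table were whole numbers as deposited. The table held 17 further columns of cells not analysed here. The genes followed, the pathway list and the comparisons were chosen with earlier results of these data known.

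Counts were divided by each cell's total to give CPM, and TPM were summed per gene for comparisons between genes (Python 3.11.15, pandas 2.3.3). Cells were clustered with Seurat 5.3.0 on 1894 of the 2000 most variable genes (10 components, resolution 0.8), after 509 genes were set aside, the 9 followed genes included. A cluster was named when the markers of a type gave the highest score in at least 80% of its cells, at least 3 of them were detected in most cells and no other type had more markers among the 10 leading genes. The cluster of 17 cells met this for Reissner's membrane (3 of 3 markers) but was left unnamed by a choice made after it was seen, since those markers had been drawn up with its leading genes known. The reported clustering was the second. A first one left out 19 fewer genes, and its names came from z-scores of the markers; it gave 90 IMC and left SC unnamed, at 67.65% of 34 cells. After that was seen, the 19 genes were also left out and the score became the mean log level of the markers. With z-scores the reported SC cluster would be unnamed as well (68.57%). No doublet caller was run, since cells were picked one at a time. No cell was filtered out in the main values, and 20 cells held under 100000 counts. Genotypes were compared as the log2 ratio of their mean CPM after 1 CPM was added to each, among genes with a mean of at least 10 CPM in either genotype, and the calculation was tested on simulated data. As no label names the mouse of a cell, no test, standard error or p-value was computed. Spread is the SD of log2 mean CPM over batches with at least 3 cells of the type. Intervals of shares, those of a count of 0 included, are exact binomial 95% intervals, and they cover counting error only. All genes followed were named, and of the pathway list those with a mean of at least 10 CPM in a named Slc26a4+/+ cell type could be named; 2 genes of the list first drawn up are not reported here and were left out of its counts. For likeness, the 3 genes with the highest Spearman rho over the cells of a type were listed. Sequences were read from RefSeq promoter windows of GRCm38.p6, and gene positions are those of the annotation of GRCm38.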

Additional observations from a re-analysis of the deposited data

Results flagged for a closer look

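In 6 of 13 sets of 4 to 10 cells of 1 type and genotype, 1 cell lay far above the others. Chance marks about 1 set in 20 only for values with a normal spread, which single cells with many values at or near 0 do not have, so 6 of 13 cannot be read against that rate. The 6 also come from 3 groups of cells and are not independent. In the 10 Slc26a4-/- SC, Aldh1a2 reached 429.7 CPM in a cell, with the next at 226 CPM. In the 6 Slc26a4+/- RC, Aldh1a1 reached 527.2 CPM (next 0.302 CPM) and Rarb 171.7 CPM (next 31.1 CPM). In the 5 Slc26a4-/- MC, Rara reached 334.9 CPM (next 42.4 CPM), Rarb 57.51 CPM (next 0.856 CPM) and Rarg 363.8 CPM (next 52.1 CPM).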

How the results depend on the processing

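The higher Cyp26a1 mean in mutant IMC kept its direction under each alternative that gave a value. The genes were selected on that difference, so its kept direction is a description and no support. The log2 difference ran from 2.64 (without batch 4) to 8.26 over 17 settings for Slc26a4-/- and from 4.31 to 10.10 over 16 for Slc26a4+/- cells, for which there was no value without batch 4. Of the genes other than Cyp26a1, 1 passed 2-fold in Slc26a4-/- IMC. That count was 0 with cells thinned to 100000 counts, with a pseudocount of 10 CPM, in batches 2 and 4 alone and with the first clustering and naming score, an alternative added after seeing the data, and 2 as the mean of collection days and without batch 4. Of the pathway list, 6 genes were higher, against 3 with a pseudocount of 10 CPM, 3 without batch 2, 3 in batches 2 and 4 alone, 3 with the first clustering and 2 with a limit of 50 CPM; 4 were lower, against 9 without batch 2 and 2 with a limit of 50 CPM. Rarg in SC minus RC was 1.08 on the log2 scale, but -0.17 in TPM, -1.56 without batch 3 and -0.18 in batches 2 and 4 alone. Rarg in MC, 4.24 between Slc26a4-/- and Slc26a4+/+ cells, was -2.55 without batch 2. Over all genes in IMC, 1100 were higher, against 1721 without batch 3, 1792 in batches 2 and 4 alone, 1765 (and 2781 lower) with no limit on the mean and 455 (and 563 lower) with a limit of 50 CPM. The first clustering gave Cyp26a1 differences of 5.79 and 7.63 and no value for SC. The causes were not tested. Of the other values, 312 stayed as in the main setting and 38 moved. Differences were judged against the SD between collection days, and counts of genes by their ratio to the main count. Among the 38, the sign changed for 5 that had been under 2-fold: Aldh1a1 in SC minus RC (-3.11 without batch 3 and -3.40 in batches 2 and 4 alone), Rara in RC minus SC (-2.87 in batches 2 and 4 alone), Aldh1a1 in Slc26a4-/- IMC (-2.98 without batch 2) and Rarb in Slc26a4-/- SC (3.71 in batches 2 and 4 alone). No paired analysis was possible because the labels name no mouse and give no replicate number that cells of different genotypes share. Cyp26a1 on the 5 collection days of batch 2 that held both genotypes is given above as a description. With a median of 1312950 counts a cell, a gene missing from a cell may be below detection there.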

Other observations

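At a clustering resolution of 1.2 the 118 IMC fell into clusters of 77 and 41 cells, and the second was led by Syt9, Gbp3 and Gsta2, with Plk2 among its 10 leading genes. In batch 4 the second cluster held 6 of 7 Slc26a4+/+, 13 of 23 Slc26a4+/- and 11 of 12 Slc26a4-/- IMC. Cyp26a1 was found in 4 of those 13 and 5 of those 11 cells, in 0 of the 10 other Slc26a4+/- cells of batch 4 and in its 1 other Slc26a4-/- cell. In batch 2 it was found in 3 cells of the first cluster.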
